A study of Mus musculus with 8 samples.

Results

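The genes described here encode histone H3.3 and the chaperones that carry it. They are 10 of the 21058 genes listed in an RNA-seq series of mouse pachytene spermatocytes, and were chosen by name: the H3.3 genes *H3f3a* and *H3f3b*, the HIRA complex genes *Hira*, *Ubn1*, *Ubn2* and *Cabin1*, the paired chaperone genes *Daxx* and *Atrx*, and the upstream chaperone genes *Asf1a* and *Asf1b*. All 10 were among the 17643 genes with enough counts to be tested. The series compared 4 Arid1acKO with 4 Arid1aWT libraries of spermatocytes purified by Sta-Put, a separation of testis cells by sedimentation at unit gravity. Arid1acKO males were *Arid1a* fl/fl and carried a copy of the Stra8-Cre transgene, which is expressed from spermatogonia onward, and Arid1aWT males were fl/fl or fl/+ controls without it, on a CD1 background. Per the methods, each purification pooled testes of at least 12 males older than 60 days, and fractions of at least 80% pachytene spermatocytes were kept. Excision was described as incomplete, so some Arid1acKO spermatocytes keep ARID1A, a putative DNA-binding subunit of a BAF chromatin remodeler.

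H3.3 is a replacement histone that is put into chromatin outside DNA replication, whereas canonical H3 is made for S phase. ASF1 proteins hand H3-H4 dimers to deposition complexes. HIRA, with its ubinuclein and CABIN1 partners, deposits H3.3 mainly at active genes, and DAXX with the remodeler ATRX deposits it in heterochromatin. In pachytene spermatocytes H3.3 is known to gather on the silenced X and Y chromosomes, so the comparison asks whether RNA of the histone and of its carriers differs when *Arid1a* is deleted.

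Estimated counts summed to 18308688 to 22044507 per Arid1aWT library and to 15850961 to 21626772 per Arid1acKO library. *Arid1a*, from which Cre removes floxed exons, read 113 ± 13.8 CPM in Arid1aWT and 79.7 ± 2.89 CPM in Arid1acKO (SD, n = 4). CPM is TMM-scaled estimated counts relative to library size. The log2 fold change was -0.51 (SE 0.07, edgeR adjusted p = 2.31e-05). By RT-PCR the paper still detected the excised transcript in Arid1acKO spermatocytes. This gene-level value therefore does not measure how many cells lost ARID1A. The genotypes differed throughout the transcriptome: 74.0% of genes tested were called by edgeR at an adjusted p of 0.05, 36.5% higher and 37.5% lower in Arid1acKO. Markers of other cells moved with genotype as well. All 12 spermatid markers rose, from a summed 2213 to 2445 CPM in Arid1aWT to 10144 to 10375 CPM in Arid1acKO, and all 8 Sertoli markers fell, from 539 to 610 CPM to 161 to 167 CPM. Of 10 pachytene markers 3 rose and 7 fell (8932 to 10090 CPM against 6809 to 7323 CPM), of 9 spermatogonial markers 6 rose and 2 fell, of 6 leptotene and zygotene markers 4 rose and 2 fell, of 8 Leydig and peritubular markers 2 rose and 5 fell, and of 7 macrophage and blood markers 5 rose and 1 fell. No list had a marker at 0 in a genotype's mean. The part of these cells in the values that follow was not tested, and in bulk RNA fewer cells of a type and less RNA per cell cannot be told apart. The labels call the libraries biological replicates, and do not say whether each came from a separate purification. The p-values and SDs therefore measure the spread between these libraries, which may be technical.

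The H3.3 genes encode the same protein from different DNA. Their coding sequences, taken from GENCODE M21 transcripts, are 411 bases long and differ at 95 bases (76.9% identity), 81 of them at the third position of a codon, and the 136 codons before the stop specify 0 different residues. The longest run of identical coding bases was 23, shorter than the reads of 50 bases. Other genes do share sequence with them: 17.5% of the 31-base words in *H3f3a* transcripts also occur elsewhere (8.43% in *H3f3c*, 7.98% in *Gm6421*), and 11.2% of those in *H3f3b* transcripts (6.31% in *Gm6485*), so reads could be split with those genes. The beginning of each coding sequence, bases 1 to 120, is shown because it makes visible how the genes differ without a change in protein. Capitals mark the 24 bases at which they differ.

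H3f3a: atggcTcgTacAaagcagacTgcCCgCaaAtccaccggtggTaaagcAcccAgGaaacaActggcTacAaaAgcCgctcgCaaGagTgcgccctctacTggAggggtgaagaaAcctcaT

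H3f3b: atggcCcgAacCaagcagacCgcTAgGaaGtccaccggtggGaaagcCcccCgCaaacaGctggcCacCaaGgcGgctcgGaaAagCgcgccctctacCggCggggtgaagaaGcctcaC

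The promoters differ too. The 250 bases before a RefSeq transcript start (GRCm38.p6) are shown 5′ to 3′ on the gene's strand, for the H3.3 genes and for the ubinuclein genes, because members of each pair went opposite ways in estimated counts. Capitals mark matches on either strand to CCAAT (the CCAAT box), to TATAAA (the TATA box), to GGGCGG (the GC box) and to TGACGTCA (the cAMP response element). The windows are chr1:180813606-180813855 for *H3f3a* (minus strand), chr11:116024505-116024754 for *H3f3b* (minus strand), chr16:5049807-5050056 for *Ubn1* (plus strand) and chr6:38433675-38433924 for *Ubn2* (plus strand). The *H3f3b* window belongs to a start inside the RefSeq gene, which reaches further upstream to 116026039, whereas the other windows adjoin the end of their gene.

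H3f3a: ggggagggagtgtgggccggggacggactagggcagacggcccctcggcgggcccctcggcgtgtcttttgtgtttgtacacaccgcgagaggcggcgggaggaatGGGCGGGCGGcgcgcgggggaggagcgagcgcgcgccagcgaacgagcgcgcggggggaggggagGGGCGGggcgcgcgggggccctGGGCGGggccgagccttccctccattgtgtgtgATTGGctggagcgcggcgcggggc

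H3f3b: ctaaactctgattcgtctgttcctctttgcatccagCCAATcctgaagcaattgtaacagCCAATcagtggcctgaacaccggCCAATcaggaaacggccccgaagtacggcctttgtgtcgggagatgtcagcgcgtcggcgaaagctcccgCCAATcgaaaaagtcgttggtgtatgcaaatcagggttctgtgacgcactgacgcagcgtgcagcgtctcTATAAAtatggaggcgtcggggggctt

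Ubn1: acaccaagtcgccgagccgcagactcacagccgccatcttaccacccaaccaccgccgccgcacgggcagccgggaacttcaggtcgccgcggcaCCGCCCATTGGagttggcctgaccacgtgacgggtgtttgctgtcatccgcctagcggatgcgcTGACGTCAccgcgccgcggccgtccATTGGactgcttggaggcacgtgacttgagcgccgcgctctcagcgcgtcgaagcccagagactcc

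Ubn2: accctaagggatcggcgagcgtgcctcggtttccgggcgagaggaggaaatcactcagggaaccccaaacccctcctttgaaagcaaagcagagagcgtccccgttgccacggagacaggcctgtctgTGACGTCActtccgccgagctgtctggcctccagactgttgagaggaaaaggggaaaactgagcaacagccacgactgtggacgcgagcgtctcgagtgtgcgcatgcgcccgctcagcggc

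The *H3f3a* window was 77.2% G and C and held 4 GC boxes, of which a pair overlaps, and 1 CCAAT match. The *H3f3b* window was 54.0% G and C and held 4 CCAAT matches and 1 TATAAA match, with no GC box match. Among 32851 RefSeq promoter windows of this length, 33.8% held the CCAAT box, 12.4% the TATA box, 32.7% the GC box and 1.55% the cAMP response element, and the median window was 52.4% G and C. *Ubn1* and *Ubn2* each held 1 cAMP response element, and *Ubn1* also held 2 CCAAT matches and 1 GC box. In the first listed window of each of the 10 members, 8 held a CCAAT box, 1 a TATA box, 7 a GC box and 2 a cAMP response element. *Daxx* has further windows, which held no CCAAT match. The shares above are over all windows, of which a gene can have several, and so are not the same measure. These matches are letters found in a window and say nothing of binding.

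Of the 10 members, edgeR called 3 higher in Arid1acKO (*H3f3a*, *Ubn2* and *Cabin1*) and 4 lower (*H3f3b*, *Hira*, *Ubn1* and *Asf1b*), against 36.5% and 37.5% of all genes tested, and did not call *Daxx*, *Atrx* or *Asf1a*. The median log2 fold change of the members was -0.01, and that of all genes tested -0.02. The median absolute change was 0.38 for the members and 0.76 for all genes, and no member reached 1 log2 unit, a size that 36.6% of genes tested reached with a call. With length offsets, 2 members were called higher (*H3f3a* and *Ubn2*) and 4 lower (*Hira*, *Ubn1*, *Daxx* and *Asf1b*), where 69.9% of all genes were called, 34.6% higher and 35.3% lower. The same genes were called by limma on log2(TPM + 1), where 69.3% of all genes were called, 31.4% higher and 37.8% lower. On TPM rescaled to the listed genes, limma called 1 member higher (*H3f3a*) and 6 lower, adding *H3f3b* and *Asf1a*, where 70.4% of all genes were called, 27.4% higher and 43.0% lower. The share of members called in edgeR was thus near the share of all genes called. All members except *Ubn1* changed by less than the median absolute change of all genes. The absolute change of *Ubn1* was above that of 52.8% of genes tested, and that of *H3f3a* above 43.6%. The members were not compared with genes of like expression.

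**Figure D1:**
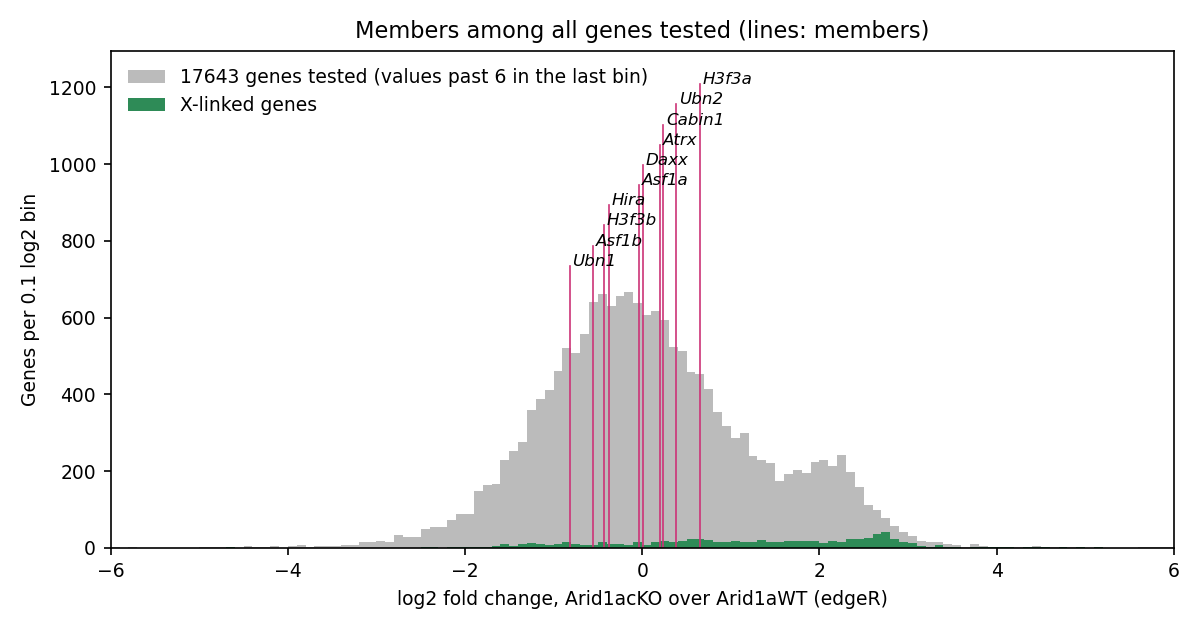
Histogram of log2 fold changes (Arid1acKO over Arid1aWT, edgeR) of 17643 genes tested in gray and of X-linked genes in green, with pink lines at the 10 members. The members lie between -0.82 (*Ubn1*) and 0.65 (*H3f3a*), inside the main body of the distribution.

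**Figure D2:**
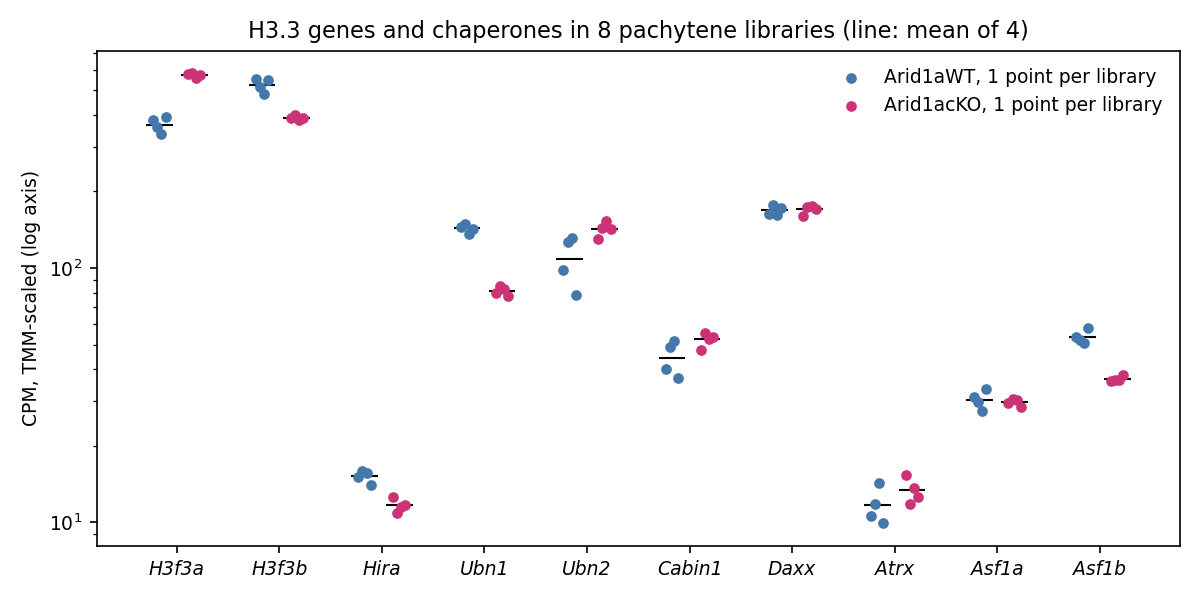
CPM on a log axis of each member in the 8 libraries, 1 point per library, with a line at the mean of 4. *H3f3a*, *H3f3b*, *Hira*, *Ubn1* and *Asf1b* show no overlap between genotypes, whereas *Ubn2*, *Cabin1*, *Daxx*, *Atrx* and *Asf1a* overlap.

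*H3f3a* (chr1:180802560-180813605) rose. It read 382, 358, 336 and 392 CPM in Arid1aWT replicates 1 to 4 and 580, 584, 560 and 575 CPM in Arid1acKO replicates 1 to 4. Every Arid1acKO library was above every Arid1aWT library, as was so in CPM for 68.9% of genes tested (no overlap in either direction). The log2 fold change was 0.65 (SE 0.05, edgeR adjusted p = 6.03e-08), and in TPM, Salmon's transcript abundance with transcript length taken into account, the level was 665 ± 27.9 against 992 ± 13.4 (SD, n = 4).

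*H3f3b* (chr11:116021961-116026039), which encodes the same protein, went the other way in counts. It read 556, 514, 485 and 547 CPM in Arid1aWT and 391, 401, 381 and 390 CPM in Arid1acKO. The genotypes did not overlap, and the log2 fold change was -0.43 (SE 0.05, edgeR adjusted p = 3.85e-06). On deposited TPM and with length offsets the fall was not called. *H3f3b* read 452, 451, 436 and 457 TPM in Arid1aWT and 434, 456, 437 and 437 TPM in Arid1acKO, means of 449 ± 9.01 and 441 ± 10.4 (SD, n = 4) that overlap. With gene-by-library length offsets the edgeR log2 fold change was 0.07 (SE 0.05, adjusted p = 0.246), and limma on log2(TPM + 1) gave -0.03 (SE 0.05, adjusted p = 0.633).

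The scales differ in whether they use the transcript length that Salmon assigned. A gene's estimated count divided by its TPM is proportional to the mean effective length of its transcripts in that library, and was set relative to the median gene. For *H3f3b* this relative length was 0.785, 0.775, 0.769 and 0.773 in Arid1aWT and 0.560, 0.556, 0.555 and 0.561 in Arid1acKO. The change was -0.47 log2 units (SE 0.0088, limma adjusted p = 2.25e-06), which ranked 2 by p among 13977 genes with at least 10 counts in every library, of which 9.98% were called shorter and 40.8% longer. Only 3.11% of those genes had a lower value. For *H3f3a* the relative length was 0.365 ± 0.0038 and 0.364 ± 0.0039 (SD, n = 4), and limma did not call it (adjusted p = 0.805). The mean effective length of *H3f3b*, which Salmon reduces from transcript length by fragment size, was 2.12 ± 0.031 times that of *H3f3a* in Arid1aWT and 1.53 ± 0.011 times in Arid1acKO (SD, n = 4). GENCODE M21 lists protein-coding *H3f3b* transcripts of 2514 and 1993 bases, with others of 874 and 773 bases not marked as coding, and the gene-level values do not show which were used.

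**Figure D3:**
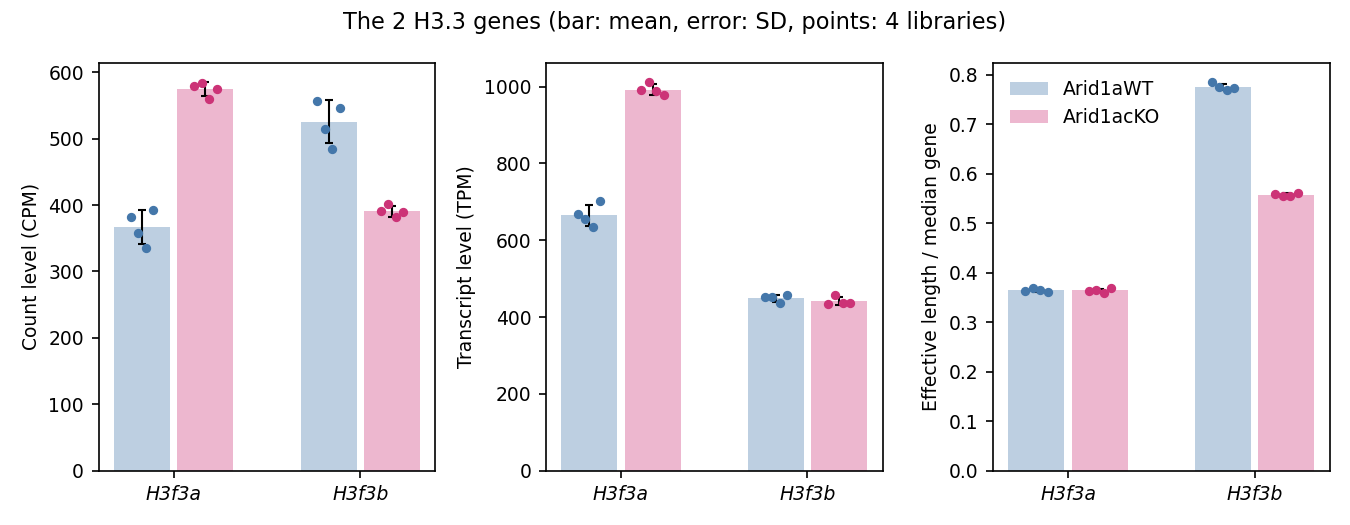
*H3f3a* and *H3f3b* in CPM (left), TPM (middle) and effective length relative to the median gene (right), with bars at the mean of 4 libraries, SD as error bars and a point per library. *H3f3a* is higher in Arid1acKO in CPM and TPM at a length that was not called different, and *H3f3b* is lower in CPM, level in TPM and shorter.

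Together, the H3.3 genes gave 1120, 1108, 1070 and 1158 TPM in Arid1aWT and 1424, 1467, 1426 and 1415 TPM in Arid1acKO, a ratio of means of 1.29. In CPM, which does not divide by length, the sums were 892 ± 57.2 and 965 ± 18.0 (SD, n = 4), a ratio of 1.08. The listed genes held 78.1% to 81.1% of all TPM in Arid1aWT and 88.1% to 88.6% in Arid1acKO, and after rescaling TPM to the listed genes the ratio was 1.16. The genotypes did not overlap on any of the 3 scales, but the size of the difference depended on the scale. On rescaled TPM *H3f3b* was called lower (log2 fold change -0.18, limma adjusted p = 0.00643) and *H3f3a* remained higher at 0.43 (adjusted p = 3.35e-05). The sum describes RNA and not protein.

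*Ubn1* and *Ubn2* encode ubinucleins, which bind H3.3-H4 within the HIRA complex, and they moved in opposite directions. *Ubn1* (chr16:5050057-5086289) read 145, 149, 136 and 143 CPM in Arid1aWT and 79.9, 84.9, 82.5 and 77.8 CPM in Arid1acKO. All Arid1acKO libraries were lower, with the greatest fall among the members, -0.82 log2 units (SE 0.05, edgeR adjusted p = 1.11e-09), and with length offsets it was -0.91. *Ubn2* (chr6:38433925-38512763) read 98.4, 127, 132 and 78.5 CPM in Arid1aWT and 131, 144, 153 and 142 CPM in Arid1acKO. Arid1aWT replicates 1 and 4 were low, and replicate 3 was just above the lowest Arid1acKO library. The log2 fold change was 0.39 (SE 0.12, edgeR adjusted p = 0.0125), and 0.59 with length offsets (adjusted p = 0.00129). It ranged from 0.27 without Arid1aWT replicate 4 to 0.49 without replicate 3, while library size without TMM gave 0.28 (adjusted p = 0.0988) and limma on rescaled TPM 0.36 (adjusted p = 0.092).

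*Hira* (chr16:18876750-18970309), the scaffold and WD-repeat chaperone of the complex, read 15.0, 16.0, 15.6 and 14.0 CPM in Arid1aWT and 12.5, 10.9, 11.5 and 11.7 CPM in Arid1acKO. It was lower in all 4 Arid1acKO libraries, by a log2 fold change of -0.38 (SE 0.07, edgeR adjusted p = 3.52e-04). Of its 31-base transcript words, 43.1% also occur in *Gm28539*, so reads could be split between them. *Cabin1* (chr10:75646110-75764357), a large partner of HIRA, read 40.0, 49.0, 51.6 and 37.1 CPM in Arid1aWT and 47.7, 55.4, 52.8 and 53.7 CPM in Arid1acKO. The genotypes overlapped, and Arid1aWT replicates 1 and 4 were again low. The log2 fold change of 0.24 (SE 0.09, edgeR adjusted p = 0.0321) was 0.19 without replicate 1 (adjusted p = 0.0963) and 0.17 without replicate 4 (adjusted p = 0.0523), and it turned to -0.06 in limma on log2(TPM + 1) (adjusted p = 0.77).

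*Daxx* and *Atrx* were not called. *Daxx* (chr17:33909404-33915590), which binds H3.3-H4 directly, read 164, 177, 162 and 172 CPM in Arid1aWT and 160, 174, 176 and 171 CPM in Arid1acKO. These values overlap, and the log2 fold change was 0.01 (SE 0.05, edgeR adjusted p = 0.863). Its relative length was called longer (0.16 log2 units, SE 0.03, limma adjusted p = 0.00364), and on length-aware scales *Daxx* was lower. The mean was 142 ± 3.85 TPM in Arid1aWT and 121 ± 6.57 TPM in Arid1acKO (SD, n = 4), without overlap. The change was -0.13 with length offsets (edgeR adjusted p = 0.0378) and -0.22 in limma on log2(TPM + 1) (adjusted p = 0.00566).

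*Atrx* (chrX:105797615-105929372), the X-linked member, encodes the remodeler that works with DAXX. It read 10.6, 11.8, 14.3 and 9.92 CPM in Arid1aWT and 15.3, 11.8, 13.7 and 12.6 CPM in Arid1acKO. The libraries overlap, with a log2 fold change of 0.20 (SE 0.11, edgeR adjusted p = 0.127). Of 799 X-linked genes tested 79.2% were called, 66.6% higher, and their median change was 1.32, well above that of *Atrx*. Without Arid1aWT replicate 3 the change was 0.31 (adjusted p = 0.00874), past the threshold.

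The ASF1 genes differed from each other. *Asf1a* (chr10:53596961-53609225) read 31.1, 29.6, 27.3 and 33.5 CPM in Arid1aWT and 29.5, 30.5, 30.3 and 28.4 CPM in Arid1acKO, a log2 fold change of -0.03 (SE 0.07, edgeR adjusted p = 0.661). The genotypes overlapped, though *Asf1a* was called lower without TMM (-0.13, adjusted p = 0.0495) and on rescaled TPM (-0.25, limma adjusted p = 0.00389). *Asf1b* (chr8:83955694-83970195), the form associated with dividing cells, read 53.7, 52.2, 50.8 and 58.3 CPM in Arid1aWT and 35.9, 36.1, 36.4 and 37.8 CPM in Arid1acKO. All Arid1acKO libraries were lower, by -0.56 log2 units (SE 0.05, edgeR adjusted p = 3.39e-07), and by -0.61 with length offsets.

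**Figure D4:**
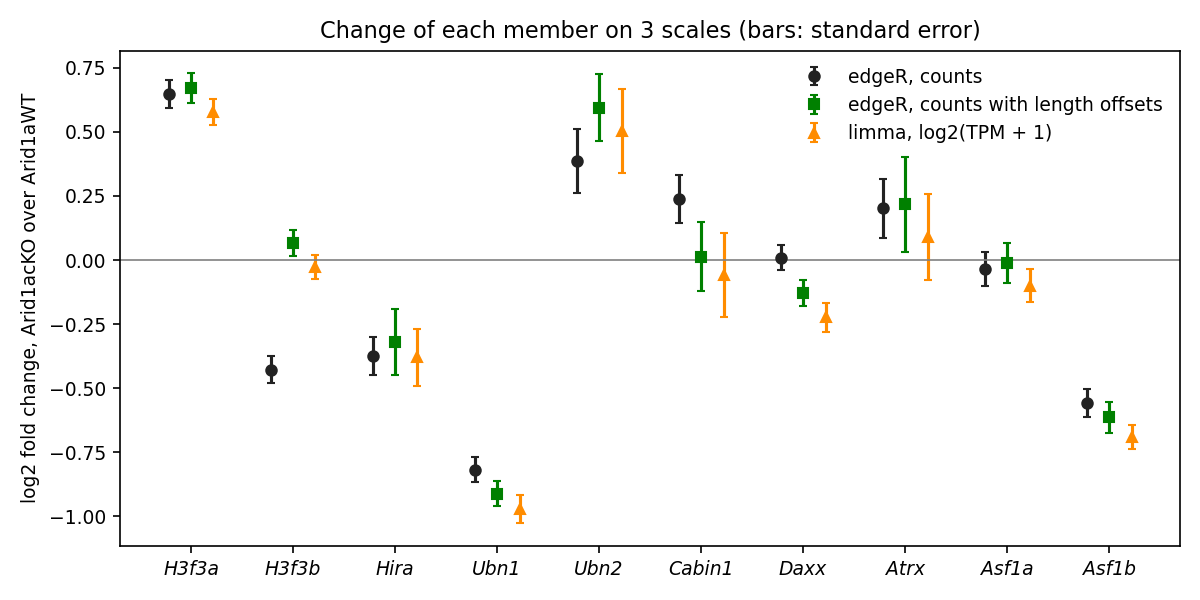
Log2 fold change of each member with its standard error, from edgeR on counts (circles), edgeR with length offsets (squares) and limma on log2(TPM + 1) (triangles). *H3f3b* moves from -0.43 to near 0 when length is taken into account. *H3f3b*, *Cabin1* and *Daxx* change sign between the scales, and the other members keep theirs.

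In effective length, 3 members were called longer (*Ubn1*, *Daxx* and *Asf1b*) and 2 shorter (*H3f3b* and *Ubn2*), where 50.8% of the genes tested for length were called, 40.8% longer and 9.98% shorter. The share of members called was thus that of the background. *Ubn2* shortened by 0.19 log2 units (fitted value -0.19, SE 0.02, limma adjusted p = 2.51e-04), while *Ubn1* lengthened by 0.11 (SE 0.02, adjusted p = 0.00177) and *Asf1b* by 0.08 (SE 0.0092, adjusted p = 3.56e-04). *Cabin1* had a value of 0.23 (adjusted p = 0.0693), with Arid1aWT replicate 1 at 2.79 and the other Arid1aWT libraries at 2.11 to 2.24. Without replicate 1 it was called longer, at 0.33 (adjusted p = 6.72e-04).

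Per length, the order of the members by mean TPM was *H3f3a*, *H3f3b*, *Daxx*, *Asf1a*, *Asf1b*, *Ubn1*, *Ubn2*, *Cabin1*, *Hira* and *Atrx* in Arid1aWT. The libraries of *Asf1a* and *Asf1b*, of *Ubn2* and *Cabin1*, and of *Cabin1* and *Hira* overlapped there. In Arid1acKO *Ubn2* (27.9 ± 1.41 TPM, SD, n = 4) stood above *Ubn1* (19.5 ± 0.618 TPM), reversing the order of 19.8 ± 5.15 and 39.3 ± 1.90 TPM in Arid1aWT. The neighbours that overlapped in Arid1acKO were *Asf1b* with *Ubn2* and *Hira* with *Atrx*.

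The balance within each pair of paralogs was compared as a share of the pair's TPM in each library. *H3f3b* made up 40.3%, 40.7%, 40.7% and 39.5% of the H3.3 pair in Arid1aWT and 30.4%, 31.1%, 30.6% and 30.8% in Arid1acKO. This is a difference of -9.56 percentage points (two-sided exact permutation test, p = 0.0286). *Ubn2* made up 31.4%, 36.2%, 38.1% and 26.8% of the ubinuclein pair in Arid1aWT and 57.2%, 58.2%, 59.9% and 59.7% in Arid1acKO, a difference of 25.7 points (exact p = 0.0286). *Asf1b* made up 47.5% ± 1.32 of the ASF1 pair in Arid1aWT and 37.2% ± 0.64 in Arid1acKO (SD, n = 4), a difference of -10.2 points (exact p = 0.0286). None of the 3 shares overlapped between genotypes, in a comparison in which the CPM of 68.9% of single genes did not overlap, and other gene pairs were not examined. The p is the smallest that 70 assignments of the libraries can give, and the Benjamini-Hochberg value over the 3 pairs is the same. In estimated counts, which are not divided by length, the shares went from 58.9% to 40.5% for *H3f3b*, a difference of -18.4 points, from 42.7% to 63.6% for *Ubn2* and from 63.9% to 55.2% for *Asf1b*. *H3f3b* thus held the larger part of the H3.3 pair in Arid1aWT by counts and the smaller part by TPM.

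**Figure D5:**
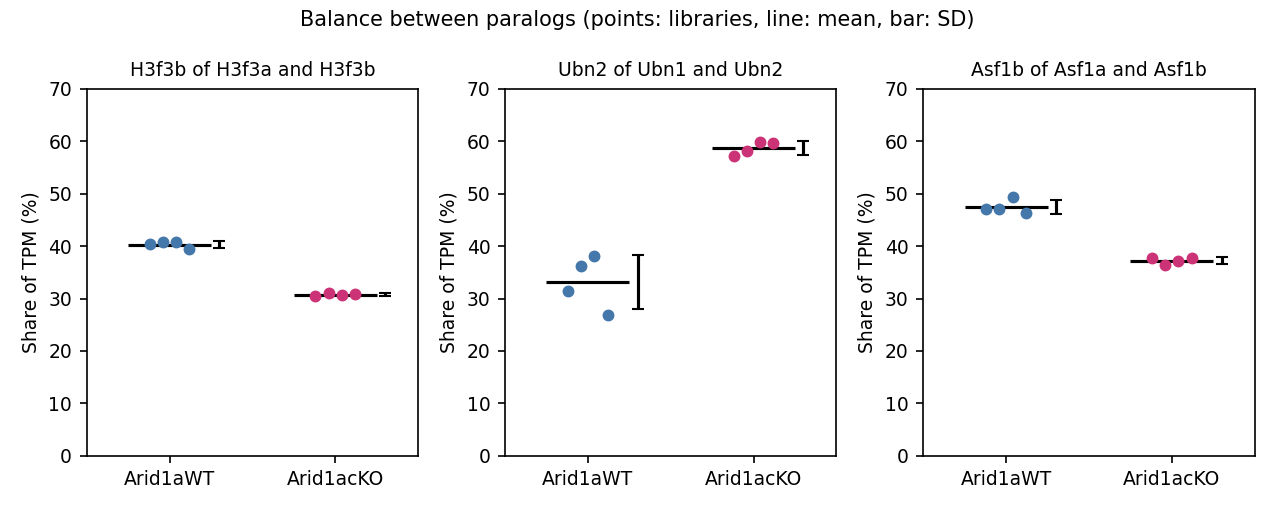
Share of TPM taken by *H3f3b*, *Ubn2* and *Asf1b* in its pair, with a point per library, a line at the mean of 4 and an SD bar beside it. The points separate by genotype in each pair, and the widest separation is that of *Ubn2*, from 33.1% to 58.8%.

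Other genes of histone supply and use were counted from lists of related genes. All 22 other H3-H4 chaperones were called, 8 higher and 14 lower, with a median log2 fold change of -0.38 (all genes tested: 36.5% higher, 37.5% lower, median -0.02). The share called higher was thus near that of all genes. With length offsets 7 were called higher and 13 lower, with *Set* and *Npm1* no longer called. In limma on log2(TPM + 1), 6 were called higher and 14 lower. *Dnajc9*, a heat shock co-chaperone that binds H3-H4, rose by 1.46 (SE 0.06, edgeR adjusted p = 9.89e-12), as did *Hat1*, which acetylates new H4, by 1.42, and *Mcm2*, a replicative helicase subunit, by 0.93. The nucleosome assembly genes *Nap1l4* and *Nap1l1* had changes of -1.43 and -1.16, and *Supt16*, which encodes a FACT subunit, had -1.07 (edgeR adjusted p = 2.87e-10).

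Among 14 partners and readers of H3.3, 12 were called lower and 1 higher, with a median of -0.74 (all genes: 37.5% lower, 36.5% higher). *Dek*, a chromatin protein that binds histones, was the gene that rose, by 1.76 (SE 0.05, edgeR adjusted p = 3.41e-13), from 26.0 ± 0.512 to 88.0 ± 3.74 CPM (SD, n = 4). *Morc3*, an ATPase of PML bodies, had -1.72, *Setd2*, a histone methyltransferase of transcribed genes, -1.27, and *Sp100*, a PML body protein, -1.06 (edgeR adjusted p = 0.00162). *Rpa3* was the gene not called.

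Of 9 other replacement histone genes 3 were called higher and 5 lower, with a median of -0.60, where 36.5% and 37.5% of all genes were. *H2afy* (macroH2A) and *H2afz* (H2A.Z) had changes of -1.07 and -0.89, and the linker histone gene *H1fx* -0.86 (edgeR adjusted p = 3.32e-08). *Cenpa*, the centromeric H3 gene, rose by 0.81 and *H1f0* by 0.37, the latter not called on rescaled TPM (0.073, limma adjusted p = 0.402). *H2afv* rose by 0.18 (edgeR adjusted p = 0.0332). That call was lost without TMM and with length offsets (0.042, edgeR adjusted p = 0.740). With a library left out, the edgeR adjusted p of *H2afv* reached up to 0.0957. Its sign turned on TPM (-0.046 in limma on log2(TPM + 1)). Canonical H3 mRNAs mostly lack the poly(A) tail that mRNA kits select, and the list summed to 7.37 to 8.71 CPM in Arid1aWT and 8.66 to 11.6 CPM in Arid1acKO. Of 12 listed canonical genes 8 were tested, and 3 were called higher and 1 lower, with a median of 1.09, against 36.5% and 37.5% of all genes. *Hist1h3a* rose from 0.725 ± 0.234 to 3.60 ± 0.949 CPM and *Hist2h3c2* from 1.19 ± 0.234 to 2.91 ± 0.556 CPM, while *Hist2h3c1* fell from 5.48 ± 0.498 to 2.13 ± 0.326 CPM (SD, n = 4, edgeR adjusted p = 6.00e-07).

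The genes whose centred log2 CPM over the 8 libraries lay nearest to that of *H3f3a*, among 9707 genes searched, were *Actr10*, *Tmem267* and *Hnrnpab*, at Euclidean distances of 0.056, 0.072 and 0.079 log2 units. Those nearest to *H3f3b* were *Park7*, *Exosc2* and *Sec23a*, at 0.074, 0.077 and 0.088.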

How the data were processed

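RNA was measured in 4 Arid1aWT and 4 Arid1acKO libraries of pachytene spermatocytes, grouped by their labels. The authors ran Salmon on paired reads of 50 bases and collapsed its transcripts into Entrez genes on mm10 (tximport). They deposited estimated counts, not scaled for depth or length, and TPM, which Salmon scales for effective length. Their table of DESeq2 fold changes and p-values was not used.

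Estimated counts, for which whole counts had been planned, were rounded. Genes with at least 10 counts over 8 libraries were tested with edgeR 4.0.16 in R 4.3.3 (TMM, quasi-likelihood, genotype only) with calls made at 0.05 after Benjamini-Hochberg adjustment. The SE is the log2 fold change over the root of F. Effective length, the log2 of count over TPM centred on the median gene, was tested with limma 3.58.1 on genes with at least 10 counts in every library. Shares were tested by exact permutation. Word sharing used GENCODE M21, and coordinates are of RefSeq GRCm38.p6. Promoter sequences are from RefSeq GRCm38.p6 and were matched for all 10 members. Scripts were tested on simulated data.

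Shares were also taken from estimated counts. Members and gene lists were chosen with earlier results of these data known. Named list genes averaged 1 or more in log2 CPM and were the 3 called genes with the greatest rise and fall per list; *Rpa3* and the genes sharing words with members were named after their values were seen. Nearest genes averaged 3 or more in log2 CPM. The alternatives were DESeq2 1.42.0, its size factors, no TMM, autosomal TMM, length offsets, other filters, a replicate block, limma on TPM at pseudocounts of 1 and 0.1, a threshold of 0.01 and each library left out. Rescaled TPM was added after the data were seen.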

Additional observations from a re-analysis of the deposited data

Results flagged for a closer look

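Among 50 sets of 4 libraries examined for a library far from the others, of which chance would give 2.5, 1 passed Dixon's 95% critical value. The relative effective length of *Asf1a* in Arid1aWT replicate 3 was 0.386, with the other Arid1aWT libraries at 0.370 to 0.372, a gap of 0.855 of the range.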

How the results depend on the processing

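*H3f3a*, *Hira*, *Ubn1* and *Asf1b* kept direction and call in every alternative, over log2 ranges of 0.43 to 0.69, -0.52 to -0.32, -1.12 to -0.78 and -0.84 to -0.50. Members called higher fell from 3 to 1 without TMM, which moved the median of all genes to -0.12, on rescaled TPM (median -0.13) and at an adjusted p of 0.01. They were 2 to 4, and those called lower 4, when each library was left out. Without TMM 5879 genes were higher and 7216 lower, and on rescaled TPM 4838 and 7587. On rescaled TPM other H3-H4 chaperones called higher fell to 4 and replacement histones to 1. Canonical H3 genes called lower were 1 to 2 with a library left out, 2 without Arid1acKO replicate 4. The summed H3.3 ratio of 1.29 was 1.08 in CPM and 1.16 on rescaled TPM.

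Signs turned for *H3f3b* (0.068 with length offsets). For *Cabin1* they turned to -0.057 and -0.059 on TPM with pseudocounts of 1 and 0.1 and -0.20 on rescaled TPM, and for *Daxx* to -0.088 without TMM, -0.13 with length offsets, -0.22 on either TPM pseudocount and -0.37 on rescaled TPM. *Atrx* was -0.031 on rescaled TPM. *Asf1a* was 0.0012 with autosomal TMM and 0.0027 with the stricter count filter. *H2afv* was -0.046 and -0.047 on the TPM pseudocounts and -0.19 on rescaled TPM. With each library left out *Daxx* ranged from -0.0083 to 0.039, *Asf1a* from -0.080 to 0.032 and *Cabin1* from 0.17 to 0.32 (uncalled without Arid1aWT replicate 1 or 4 or Arid1acKO replicate 2, 3 or 4). Length changes of members not called turned too: centred on deeper genes *H3f3a* was 0.00077 and *Asf1a* 0.00095, and with each library left out *H3f3a* ranged from -0.010 to 0.0025, *Hira* from -0.12 to 0.044, *Atrx* from -0.073 to 0.085 and *Asf1a* from -0.018 to 0.022. No cause of these turns was tested, for *H3f3b* or for the other genes. In their deviations from the genotype means, same-numbered libraries correlated by 0.20, 0.04, 0.09 and -0.09, and differently numbered ones by -0.21 to 0.18. These correlations cannot settle whether the numbers pair the libraries. With the replicate block 13100 genes were called against 13048, the member calls remaining 3 higher and 4 lower. In that fit the edgeR adjusted p was 7.27e-04 for *Ubn2* and 0.00607 for *Cabin1*.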
